A study of Mus musculus with 8 samples.

Results

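The pentose phosphate pathway and Tigar are described here through 10 genes, named from the pathway's textbook enzymes, with earlier results of these data known. They are Tigar, the 4 genes of the oxidative branch (G6pdx, H6pd, Pgls and Pgd), the 4 of the non-oxidative branch (Rpia, Rpe, Tkt and Taldo1) and Prps1, which draws on the pathway's product. All 10 were found once among the 55385 genes of the count table, and all 10 were among the 17445 that passed the filter on low counts. The question was whether transcripts of the pathway fed by TIGAR move down with those of glycolysis when Eftud2, a GTPase of the U5 spliceosomal particle, is knocked down.

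All 8 libraries came from R1 mESCs, an established mouse embryonic stem cell line of wild-type genotype, grown in N2B27 with 2i and Lif on coated plates. Cells received a lentiviral hairpin over 2 days of infection and were kept in puromycin for 3 days, also in the control. The hairpins were Eftud2 shRNA1 (3 biological replicates), Eftud2 shRNA2 (3) and the non-targeting nt-shRNA (2). As the study describes them, shRNA1 is directed at the 3′ UTR of Eftud2 and shRNA2 at its coding sequence. All libraries are from 1 cell line, and the extent of knockdown and the sequence of the hairpin cannot be told apart. Both hairpins are compared with the same 2 nt-shRNA libraries, so the comparisons are not independent.

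Depth was between 19569525 and 29871048 counts per library, and a floor of 3 counts corresponded to 0.105 to 0.148 normalized CPM, counts scaled to a common library size. Eftud2 itself was at 262.3 and 255.7 CPM with nt-shRNA, at 225.3 to 231.9 with shRNA1 (log2 fold change −0.18, adjusted p = 0.0514) and at 198.2 to 234.7 with shRNA2 (−0.29, adjusted p = 0.00122), so the transcript passed the test with shRNA2 only. With shRNA1 it passed in 5 of 15 alternatives, among them the fits without shRNA2 replicate 2 (adjusted p = 0.0415) or shRNA2 replicate 3 (adjusted p = 0.0215). The difference between the hairpins was −0.11 (adjusted p = 0.164). By qPCR and western blot, the study reported less Eftud2 RNA and protein with either hairpin. The RNA loss it gave by qPCR was larger than the fall in these counts, which stood at 0.883 and 0.817 of the control. The cause of that gap was not tested. The 10 pluripotency markers summed to 7260 to 7410 CPM with nt-shRNA, 7350 to 7580 with shRNA1 and 7420 to 7850 with shRNA2, but singly they moved both ways, with 4 called higher and 3 lower with shRNA1, and 6 higher and 3 lower with shRNA2 (from Klf4 at 1.32 to Dppa5a at −0.96). Of 7 fibroblast markers, 3 passed the filter, and their list summed to 4.6 to 5.02, 6.52 to 7.34 and 6.28 to 7.57 CPM. Of those 3, Col1a2 was called higher with both hairpins (1.27, adjusted p = 0.0103, and 1.66, adjusted p = 0.000429), at 1.581 CPM or less. Col1a1 and Thy1 had positive log2 fold changes with no call. Among the untested markers, Dcn was at 0 in every knockdown library, Lum at 0 with shRNA2 and Col3a1 at 0 with nt-shRNA. The 6 primitive endoderm markers summed to 44.5 to 45.9, 42.6 to 48.8 and 35.5 to 41.4 CPM. Of the 5 that passed the filter, 0 were called with shRNA1. With shRNA2 all 5 had negative log2 fold changes, and 1 was called lower (Gata6, −0.75, adjusted p = 0.000815). The 6 markers of 2-cell-like cells rose with both hairpins (6 of 6), from a sum of 17.6 to 20 CPM to 74.7 to 95.4 with shRNA1 and 53.3 to 69.7 with shRNA2, and their part in the results below was not tested. In bulk RNA, fewer cells of a type and less RNA per cell cannot be told apart.

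The pentose phosphate pathway branches from glycolysis at glucose 6-phosphate. Its oxidative branch gives NADPH, used in lipid synthesis and in keeping glutathione reduced, together with ribulose 5-phosphate. Its non-oxidative branch exchanges pentose phosphates with the glycolytic sugars fructose 6-phosphate and glyceraldehyde 3-phosphate, in both directions, and ribose 5-phosphate becomes phosphoribosyl pyrophosphate (PRPP), the donor of ribose in nucleotide synthesis. TIGAR is a phosphatase. By lowering fructose 2,6-bisphosphate, an activator of phosphofructokinase, it is known to slow glycolysis and to favour the pentose phosphate pathway.

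Promoter stretches are shown for the 3 genes whose responses differ most in kind: Tigar, which was higher with both hairpins, Prps1, which was higher with shRNA1 alone, and Pgls, which was lower with both. Each is 120 bases of RefSeq sequence (GRCm38.p6), 5′ to 3′ on the gene's strand, ending before the first annotated exonic base. Capitals mark CCAAT and GGGCGG on either strand, the letters of a CCAAT box and a GC box, which do not overlap each other here.
Tigar, chr6:127109558-127109677, minus strand: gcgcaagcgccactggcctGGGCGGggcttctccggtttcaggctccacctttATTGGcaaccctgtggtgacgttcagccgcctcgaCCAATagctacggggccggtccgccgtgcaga
Prps1, chrX:140456483-140456602, plus strand: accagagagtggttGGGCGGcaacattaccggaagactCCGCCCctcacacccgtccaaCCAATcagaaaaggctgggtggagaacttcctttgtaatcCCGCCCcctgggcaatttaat
Pgls, chr8:71592056-71592175, plus strand: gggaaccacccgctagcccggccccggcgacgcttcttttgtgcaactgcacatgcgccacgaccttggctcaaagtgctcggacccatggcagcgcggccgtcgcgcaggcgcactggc
The Tigar stretch holds 2 CCAAT and 1 GGGCGG, the Prps1 stretch 1 CCAAT and 3 GGGCGG, and the Pgls stretch neither. Among all 32851 RefSeq promoters, 21.3% hold CCAAT and 26.5% hold GGGCGG in the 120 bases before their start. In the wider 250 bases before the start, 5 of 10 members hold CCAAT (33.8% of all promoters) and 9 of 10 hold GGGCGG (32.7%). Those 9 include Pgls, with 1 GGGCGG there, and Tkt, which was also lower with both hairpins, with 3. The core of the hypoxia response element, ACGTG, is in none of the 10 (16.6% of all), nor is the sterol element TCACNCCAC (1.05% of all). The antioxidant response core TGACNNNGC is in the G6pdx window alone (10.2% of all), where all 250 bases lie in annotated G6pdx exons. Of the Tkt window, 129 bases are exonic. The H6pd window (chr4:150003237-150003486), which holds CCAAT and no GGGCGG, lies inside the annotated span of the gene rather than before it. Members were counted by gene and the background by promoter, and GC content was not matched. The median GC of all promoters was 52.4%, and member windows ran from 38.8% (H6pd) to 65.6% (Tigar). Enrichment was not tested. These are matches of letters in 1 window only, and they say nothing about binding.

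Across the 10 genes the response was mixed. With shRNA1, 2 members were called higher (Tigar and Prps1; 13.8% of all tested genes were) and 4 lower (G6pdx, Pgls, Pgd and Tkt; 17.1% of all). With shRNA2, 1 was called higher (Tigar; 27.2% of all) and 5 lower (G6pdx, H6pd, Pgls, Tkt and Taldo1; 28.7% of all). The median log2 fold change of the members was −0.07 with shRNA1 and −0.11 with shRNA2, against −0.01 and 0.00 over all tested genes. Rpia and Rpe passed in neither comparison. Scaled by library size alone, the shRNA1 median of the members turned to 0.04, beside 0.11 over all genes, and 2 members were lower with shRNA1 and 3 with shRNA2. The count of members lower was 2 with shRNA1 without nt-shRNA replicate 1, and 3 with shRNA2 without shRNA1 replicate 2, shRNA2 replicate 1 or shRNA2 replicate 2.

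**Figure D1:**
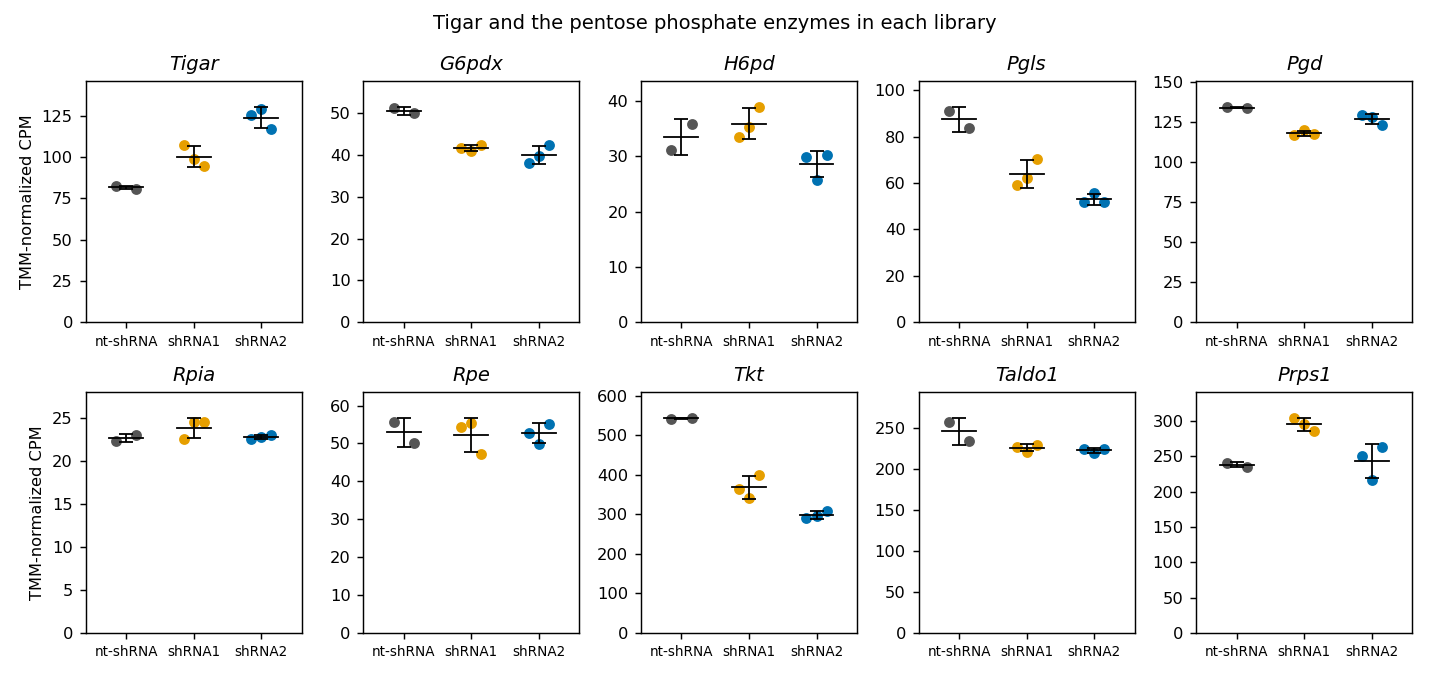
TMM-normalized CPM (vertical axes, starting at 0) of the 10 genes in each library; points are libraries, bars the mean and SD (nt-shRNA n = 2, shRNA1 and shRNA2 n = 3). Tigar lies above both nt-shRNA libraries in all 6 knockdown libraries, Tkt and Pgls lie below in all 6, and Rpia and Rpe overlap.

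Tigar rose with both hairpins. The study reported higher Tigar from these same samples, so the rise here is not independent evidence of its direction. Its level was 82.54 and 81.04 CPM with nt-shRNA, 107.4, 98.67 and 94.83 with shRNA1, and 125.9, 129.5 and 116.9 with shRNA2, so the 3 groups did not overlap and stood in that order. The rise was 1.23-fold with shRNA1 (log2 fold change 0.29, SE 0.0683, adjusted p = 0.00292) and 1.52-fold with shRNA2 (0.60, SE 0.0685, adjusted p = 5.29e-07). shRNA2 exceeded shRNA1 by 0.31 (95% interval 0.18 to 0.43, adjusted p = 0.000686). Of all tested genes, 79.1% had a lower log2 fold change than Tigar with shRNA1 and 84.3% with shRNA2. Tigar lies on chr6:127085116-127109557 (GRCm38, minus strand, 6 merged exons), and 3.34% of its exonic bases overlap the antisense RNA Platr31, which had 11 to 62 counts per library.

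The 4 genes whose bifunctional enzymes make and break fructose 2,6-bisphosphate moved otherwise. Pfkfb3, the isoform with the highest ratio of kinase to phosphatase activity, was at 49.93 and 52.09 CPM with nt-shRNA, 29.45 to 34.08 with shRNA1 (log2 fold change −0.70, adjusted p = 1.3e-05) and 17.09 to 21.76 with shRNA2 (−1.41, adjusted p = 7.23e-10). Pfkfb1 (−0.39 and −1.04) and Pfkfb2 (−0.39 and −0.44) also passed as lower with both. Pfkfb4 gave −0.06 with shRNA1 (adjusted p = 0.785) and rose by 0.32 with shRNA2 (adjusted p = 0.0445). That Pfkfb4 call is near the threshold. It was lost with DESeq2's Wald test (adjusted p = 0.0739), with no filter on counts (0.126) and with the replicate block (0.0506). Leaving out shRNA2 replicate 1 also lost it (adjusted p = 0.123). The smaller of these calls rest on single libraries: without nt-shRNA replicate 1, Pfkfb2 gave −0.30 and −0.35 (adjusted p = 0.199 and 0.0724), and without nt-shRNA replicate 2, Pfkfb1 gave −0.32 with shRNA1 (adjusted p = 0.103) and Pfkfb4 gave 0.26 with shRNA2 (adjusted p = 0.222). On the length-scaled level (FPKM, CPM per kilobase of annotated gene length), Tigar stood at 3.42 and 3.22 times Pfkfb3 with nt-shRNA, at 7.54, 6.74 and 5.75 times with shRNA1, and at 14.0, 15.7 and 11.1 times with shRNA2. Pfkfb3 had the lowest log2 fold change of the 4 genes with both hairpins. The rise of the ratio is therefore larger than with the other genes as partner, and Pfkfb4 did not fall with shRNA2. These ratios of transcript levels are a description and carry no test.

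In the oxidative branch, G6pdx and Pgls fell with both hairpins, while H6pd and Pgd each passed with 1 hairpin only. G6pdx, the cytosolic dehydrogenase that commits glucose 6-phosphate to the pathway, was at 51.24 and 49.93 CPM with nt-shRNA, 41.59, 41.02 and 42.39 with shRNA1, and 38.13, 39.68 and 42.32 with shRNA2. All 6 knockdown libraries were below both controls, and the hairpins overlapped each other. Its log2 fold change was −0.28 with shRNA1 (SE 0.0709, adjusted p = 0.00552) and −0.34 with shRNA2 (SE 0.0712, adjusted p = 0.000521). The shRNA1 call was lost without nt-shRNA replicate 1 (−0.26, adjusted p = 0.0681) and with library size alone as the scaling (−0.17, adjusted p = 0.0818). G6pdx lies on chrX:74409483-74429194 (GRCm38, minus strand) and shares 13.6% of its exonic bases with Ikbkg on the opposite strand, which had 951 to 1316 counts, and without strand the shared bases cannot be assigned to either gene.

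H6pd, the dehydrogenase of the endoplasmic reticulum that also carries the lactonase step, had 31.15 and 35.78 CPM with nt-shRNA, 33.47, 35.29 and 38.93 with shRNA1, and 29.81, 25.79 and 30.15 with shRNA2. The shRNA1 libraries overlapped the controls (log2 fold change 0.10, 95% interval −0.09 to 0.30, adjusted p = 0.422), and the shRNA2 libraries lay below them (−0.23, SE 0.0931, adjusted p = 0.0435). That call is near the threshold, and 8 of 15 alternatives lost it, with an adjusted p of up to 0.399 (without nt-shRNA replicate 2). The difference between the hairpins was −0.33 (adjusted p = 0.00504), with every shRNA2 library below every shRNA1 library. H6pd lies on chr4:149979475-150009023 (GRCm38, minus strand), and Pgd on the same chromosome at chr4:149149991-149166771 (minus strand).

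Pgls, the cytosolic lactonase of the branch, fell further than G6pdx with both hairpins by its fold change. It was at 91.2 and 83.58 CPM with nt-shRNA, 58.95, 62.04 and 70.44 with shRNA1, and 51.67, 55.74 and 51.59 with shRNA2, with no overlap between the 3 groups. The level was 0.731 of the control with shRNA1 (log2 fold change −0.45, SE 0.0766, adjusted p = 0.000201) and 0.607 with shRNA2 (−0.72, SE 0.0771, adjusted p = 2.49e-07). Pgls lies on chr8:71592176-71601092 (GRCm38, plus strand), and 20.6% of its exonic bases are shared with Fam129c on the same strand (158 to 356 counts), where fragments were left uncounted.

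Pgd, the dehydrogenase of the second NADPH step, moved least of the cytosolic genes of this branch. It was at 134.1 and 133.5 CPM with nt-shRNA, 116.5, 119.5 and 117.4 with shRNA1, and 129.2, 127.9 and 123.0 with shRNA2, so both hairpin groups lay below the controls and shRNA1 was the lower one. The log2 fold change was −0.18 with shRNA1 (SE 0.0574, adjusted p = 0.02) and −0.08 with shRNA2 (95% interval −0.20 to 0.04, adjusted p = 0.255). The shRNA1 call was lost in 5 of 15 alternatives, among them each fit without shRNA1 replicate 1, shRNA1 replicate 2, nt-shRNA replicate 1 or nt-shRNA replicate 2, with an adjusted p between 0.0501 and 0.131. The hairpins differed by 0.10 (adjusted p = 0.124). Over the 4 genes of the branch, the median log2 fold change was −0.23 with shRNA1 and −0.28 with shRNA2, with 3 lower and 0 higher in each comparison (17.1% and 28.7% of all tested genes were lower).

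In the non-oxidative branch, Tkt fell with both hairpins and Taldo1 passed the test with shRNA2 only. Transketolase, the product of Tkt, moves 2-carbon units between sugar phosphates. Tkt was at 541.4 and 543.8 CPM with nt-shRNA, 363.5, 339.9 and 399.4 with shRNA1, and 289.9, 296.1 and 308.2 with shRNA2, again without overlap between the groups. Its level was 0.678 of the control with shRNA1 (log2 fold change −0.56, SE 0.0656, adjusted p = 4.27e-06) and 0.549 with shRNA2 (−0.86, SE 0.0656, adjusted p = 3.28e-09), the lowest of the 10 members in both comparisons. The difference, shRNA2 minus shRNA1, was −0.30 (95% interval −0.43 to −0.18, adjusted p = 0.000716). Tkt lies on chr14:30548359-30574720 (GRCm38, plus strand, 14 merged exons).

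The other 3 genes of the branch had log2 fold changes between −0.14 and 0.07. Taldo1, the transaldolase that moves 3-carbon units, was at 258.4 and 234.6 CPM with nt-shRNA, 227.7, 221.8 and 229.6 with shRNA1, and 225.3, 220.1 and 224.7 with shRNA2. Its 6 knockdown libraries lay just below the lower control, and only the shRNA2 difference passed (−0.14, SE 0.0593, adjusted p = 0.0479; shRNA1 −0.12, adjusted p = 0.125). That call was lost in 10 of 15 alternatives, with an adjusted p of up to 0.457 (without nt-shRNA replicate 1, where the value was −0.07). Rpia, the isomerase that makes ribose 5-phosphate, was at 22.38 and 23.03 CPM with nt-shRNA, 22.55, 24.58 and 24.6 with shRNA1, and 22.55, 22.86 and 23.09 with shRNA2. Its log2 fold changes were 0.07 (95% interval −0.10 to 0.25) and 0.01 (−0.17 to 0.19). Rpe, the epimerase that makes xylulose 5-phosphate, gave −0.02 (−0.19 to 0.15) and −0.01 (−0.18 to 0.16), from 55.7 and 50.17 CPM with nt-shRNA, 47.13 to 55.28 with shRNA1 and 49.97 to 55.17 with shRNA2. These intervals leave room for changes of up to 0.25, so the tests do not show that Rpia and Rpe were constant. Rpia lies on chr6:70765720-70792232 (GRCm38, minus strand), Taldo1 on chr7:141392199-141402968 (plus strand) and Rpe on chr1:66700831-66719805 (plus strand). Rpe shares 17.9% of its exonic bases with Kansl1l on the opposite strand (85 to 167 counts). The median of the 4 genes was −0.07 with both hairpins, with 1 called lower with shRNA1 and 2 with shRNA2, beside 17.1% and 28.7% of all tested genes.

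Prps1, a synthetase that turns ribose 5-phosphate into PRPP, differed between the hairpins. It was at 240.6 and 235.6 CPM with nt-shRNA, 304.8, 295.9 and 286.2 with shRNA1, and 250.9, 216.1 and 262.7 with shRNA2. The shRNA1 libraries were above all others, and the shRNA2 libraries overlapped the controls. Prps1 rose 1.24-fold with shRNA1 (log2 0.31, SE 0.0717, adjusted p = 0.00269), and the log2 value was 0.03 with shRNA2 (95% interval −0.12 to 0.18, adjusted p = 0.733). The direct difference, shRNA2 minus shRNA1, was −0.28 (95% interval −0.41 to −0.15, adjusted p = 0.00218). Prps1, on chrX:140456613-140476140 (GRCm38, plus strand), has close copies, and fragments that align to several of them were not counted, so its level and that of the copy Prps1l3 are uncertain.

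**Figure D2:**
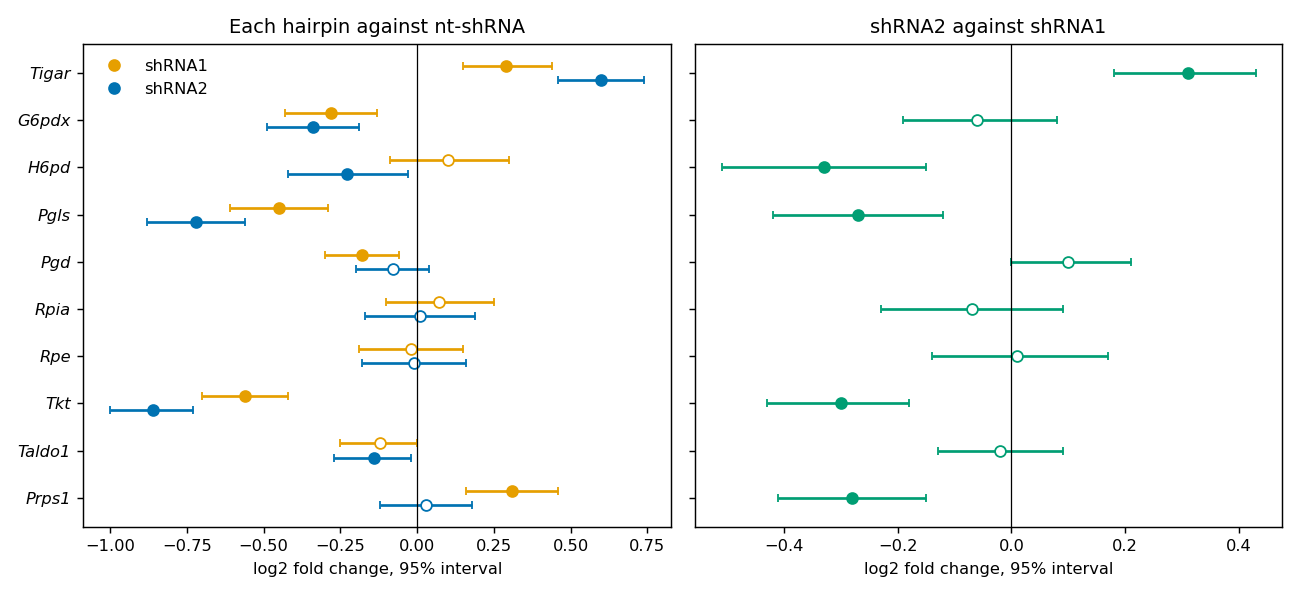
Log2 fold change (horizontal axes) with its 95% interval for each of the 10 genes, against nt-shRNA on the left (shRNA1 orange, shRNA2 blue) and shRNA2 against shRNA1 on the right; filled points passed an adjusted p of 0.05. Tigar is the only gene to the right of 0 with filled points for both hairpins, at 0.29 and 0.60, and Tkt reaches −0.86.

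Compared directly, shRNA2 differed from shRNA1 in 5 of the 10 members. Tigar was higher (16.9% of all tested genes were), and H6pd, Pgls, Tkt and Prps1 were lower (18.7% of all). For Tigar, Pgls and Tkt the larger change was with shRNA2, in the direction both hairpins shared. For G6pdx the difference was −0.06 (95% interval −0.19 to 0.08), for Taldo1 −0.02 (−0.13 to 0.09), for Rpia −0.07 (−0.23 to 0.09) and for Rpe 0.01 (−0.14 to 0.17). The median difference of the 10 was −0.06, against 0.00 over all genes.

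Between genes, levels were compared per length, as FPKM. With nt-shRNA the order was Prps1 (119), Taldo1 (114), Tkt (73.8), Pgls (23.2), Tigar (22.4), Pgd (20.8), Rpe (17.0), G6pdx (16.4), H6pd (6.39) and Rpia (4.24), each a mean of 2 libraries. In that order the libraries of Prps1 and Taldo1, of Pgls and Tigar, and of Rpe and G6pdx overlapped. With shRNA2, Tigar (33.9 ± 1.77, SD, n = 3) stood next after Tkt (40.5 ± 1.27), and Pgls (14.1 ± 0.63) stood below Rpe (16.9 ± 0.837). The gap between Tkt and Tigar thus narrowed from 73.8 against 22.4 FPKM to 40.5 against 33.9 FPKM, with no overlap in either group.

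Of 13 further genes of the pathway and its edges, 11 passed the filter (G6pd2 and Rgn did not). With shRNA1, 4 of them were called higher and 0 lower, and with shRNA2, 6 higher and 2 lower, where 13.8% of all tested genes were higher and 17.1% lower with shRNA1, and 27.2% and 28.7% with shRNA2. Their median was 0.13 and 0.30 on the log2 scale. The transketolase-like genes rose from low levels. Tktl1 went from 1.724 and 1.847 CPM to between 4.955 and 6.269 with shRNA1 (log2 fold change 1.58, adjusted p = 3.99e-06) and between 4.418 and 5.049 with shRNA2 (1.38, adjusted p = 4.64e-06). Tktl2 rose by 1.24 and 1.27 on the log2 scale, from 4.611 and 4.39 CPM. Because Tkt is far more abundant, the summed FPKM of the 3 genes still went from 75.3 ± 0.238 (SD, n = 2) to 54.1 ± 3.63 with shRNA1 and 44.4 ± 1.37 with shRNA2 (n = 3 each), and the share from Tkt from 98.0% to between 91.2% and 93.8% and between 91.1% and 91.7%.

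Among the other genes of the list, 3 of 4 for PRPP synthesis or its regulation rose with shRNA2, as did 27.2% of all tested genes. The member Prps1 gave 0.03 there, with no call. Prps2 gave 0.17 with shRNA1 (adjusted p = 0.13) and rose by 0.30 with shRNA2 (adjusted p = 0.00458; 0.26 and 0.0637 without nt-shRNA replicate 1). Prps1l3 gave 0.10 (adjusted p = 0.442) and rose by 0.46 (adjusted p = 0.000241), and its difference between the hairpins, 0.37, passed in the direction opposite to Prps1 (adjusted p = 0.00175). The regulatory subunit gene Prpsap2 rose by 0.21 and 0.33, the first lost without any 1 of shRNA1 replicates 1 and 2 and nt-shRNA replicates 1 and 2 (adjusted p from 0.067 to 0.26), and Prpsap1 gave 0.13 and 0.10 with no call. Summed over Prps1, Prps2 and Prps1l3, the FPKM was 147 ± 0.597 with nt-shRNA, 178 ± 6.35 with shRNA1 and 158 ± 10.1 with shRNA2. Rbks, the ribokinase gene, was at or under 1.308 CPM in every library and was called higher with both (1.08 and 0.99), with both calls lost without nt-shRNA replicate 1 (adjusted p = 0.165 and 0.144). The 2 genes called lower with shRNA2 were Dera, the deoxyribose-phosphate aldolase (−0.32, adjusted p = 0.000833), and Pgm2, a phosphopentomutase (−0.31, adjusted p = 0.000464).

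Glycolysis gave the reference for the question. All 18 listed glycolytic genes were called lower with each hairpin, with medians of −0.70 (shRNA1) and −1.26 (shRNA2) on the log2 scale, and the 18 ran from Aldoc (−3.12) to Slc2a3 (−0.24) with shRNA2. The study examined many of these glycolytic genes in the same samples, so the list is not independent evidence of their direction. Library by library, the median of the glycolytic genes against the mean of the controls was −0.86 to −0.53 with shRNA1 and −1.32 to −1.15 with shRNA2, and that of the 10 members was −0.13 to −0.04 and −0.15 to −0.09. Of the members, Tkt (−0.86) and Pgls (−0.72) came closest to the glycolytic median with shRNA2, and neither reached it. Single glycolytic genes overlapped them: the log2 fold change of Tkt was lower than that of 7 of the 18 with shRNA1 and of 4 of the 18 with shRNA2, the latter being Hk2, Pkm, Pgam1 and Slc2a3. Differences between Tkt and these genes were not tested.

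**Figure D3:**
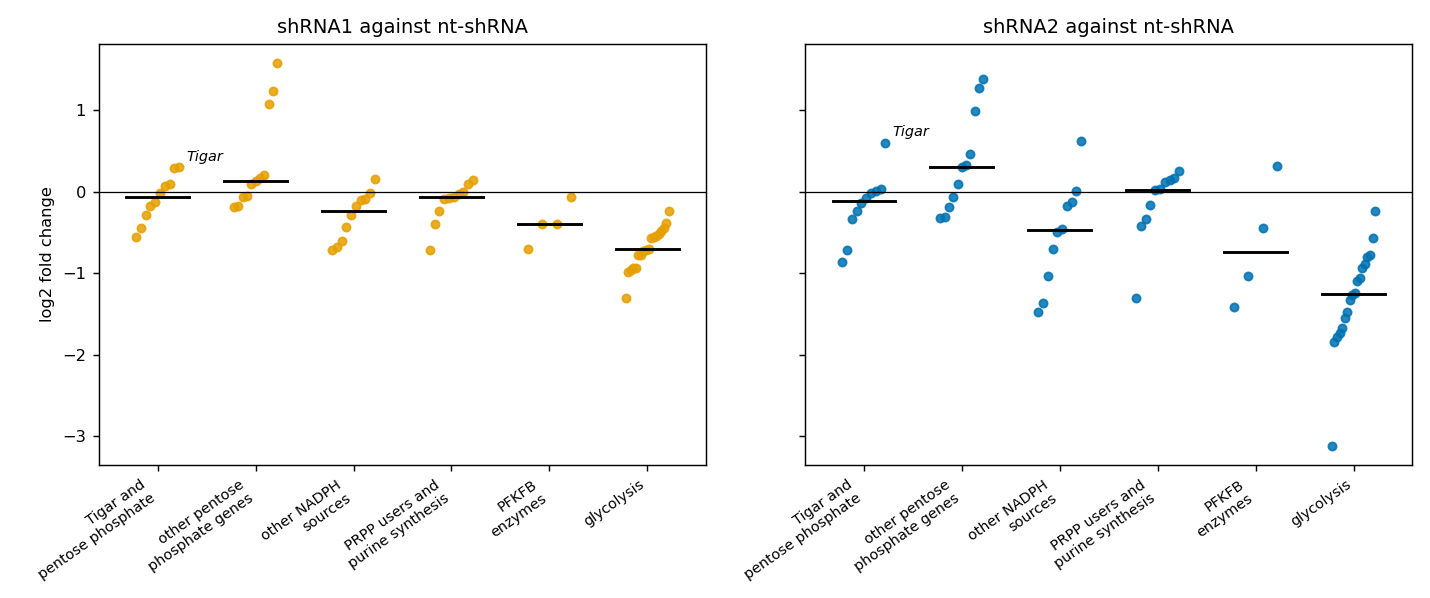
Log2 fold change against nt-shRNA (vertical axis) of every tested gene of 6 lists, shRNA1 left and shRNA2 right; points are genes, sorted within a list, and the black bar is the list's median. The members lie on both sides of 0, from −0.56 to 0.31 and from −0.86 to 0.60, with medians of −0.07 and −0.11, while the glycolytic genes all lie below 0, with medians of −0.70 and −1.26.

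Levels of 3 members were also set against a glycolytic gene in the same library. Gpi1 and Gapdh were picked as partners with their fall known, so a ratio to either rises for any gene that fell less. G6pdx and Gpi1 act on the same substrate, glucose 6-phosphate. The ratio of their FPKM was 0.0943 and 0.0877 with nt-shRNA, 0.129, 0.141 and 0.116 with shRNA1, and 0.171, 0.167 and 0.173 with shRNA2. Over the same groups Gpi1 fell by 0.77 and by 1.24 on the log2 scale. Tkt and Gapdh share glyceraldehyde 3-phosphate. Their ratio went from 0.0713 and 0.0716 to between 0.0745 and 0.0815 with shRNA1 and between 0.0801 and 0.0827 with shRNA2. It was above both controls in every knockdown library. Gapdh gave −1.06 with shRNA2, a smaller fall than the glycolytic median of −1.26, so the size of the rise depends on the partner. For Taldo1 against Gapdh the ratio was 0.115 and 0.105, then 0.145 to 0.18, then 0.202 to 0.217. The ratios describe unequal change of transcripts and carry no test.

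**Figure D4:**
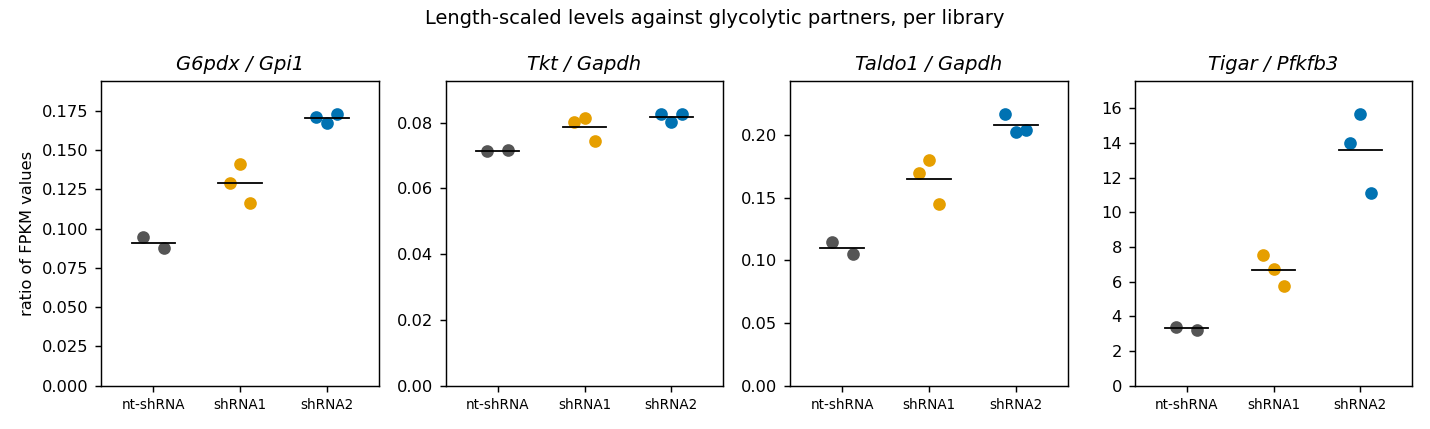
Ratio of FPKM values (vertical axes, starting at 0) in each library for 4 gene pairs; points are libraries and bars group means. G6pdx over Gpi1, Taldo1 over Gapdh and Tigar over Pfkfb3 stand in the order nt-shRNA, shRNA1, shRNA2, while Tkt over Gapdh stays between 0.0713 and 0.0827.

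Other genes of NADPH supply were lower or not called. The list also holds Nadk and Nadk2, NAD kinases that make NADP, and Mthfd2, whose enzyme uses mainly NAD. Nadk2 (−0.29 and −0.49) and Mthfd2 (−0.43 and −0.70) count among the genes called lower with both hairpins. Of 11 listed genes 10 passed the filter (Me3 did not), and 5 were called lower with shRNA1 and 7 with shRNA2 (17.1% and 28.7% of all tested genes were), with 0 higher in either, at medians of −0.23 and −0.48. Idh2, the mitochondrial NADP-dependent isocitrate dehydrogenase, went from 313.7 and 303.8 CPM to 179.6 to 201.8 with shRNA1 (log2 fold change −0.71, adjusted p = 3.31e-06) and 102.6 to 133.3 with shRNA2 (−1.36, adjusted p = 2.17e-10). Aldh1l1, a folate dehydrogenase, gave −0.68 and −1.48, the lowest of the list with shRNA2, and Me1, the cytosolic malic enzyme, fell by 0.60 and 1.03 on the log2 scale. Nnt, the transhydrogenase, gave 0.62 with shRNA2 (adjusted p = 0.0772) at 1.172 CPM or less. Its rise passed with library size alone (adjusted p = 0.0447) and with a minimum of 10 counts in every library (0.0427). The count table holds 2 entries named Nnt, and the one with more counts was used, so its level is uncertain. With shRNA2 the median of the oxidative branch, −0.28, lay between that of these genes and that of all genes, and the difference between the lists was not tested.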

How the data were processed

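RNA was measured in 8 libraries (poly(A) selection, 100 bp paired-end reads). The authors aligned reads with STAR to mm10 (GRCm38) and deposited raw counts of fragments on exons per gene, made with featureCounts 1.6.2 without a strand option. Fragments aligned to more than 1 place, or falling in more than 1 gene, were not counted, so overlapping genes and near-identical copies are uncertain. The deposited gene length served only for FPKM. Symbols came from GENCODE M21 by Ensembl identifier (55144 of 55385 genes).

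Genes passing filterByExpr of edgeR 4.0.16 (minimum count 10; R 4.3.3) were normalized by TMM (factors 0.935 to 1.036) and tested with glmQLFit and glmQLFTest over all 8 libraries, with 1 coefficient for each group and without a replicate term. A Benjamini-Hochberg adjusted p under 0.05, over all 17445 tested genes, was a call. The standard error was taken from the F statistic. The self-test on simulated counts ran on the same code. Libraries of 1 group differed beyond sampling noise (chi-square per gene 2.999 or more), so no library's counts were a copy of another's. This measure cannot tell whether libraries came from separate cultures. Labels name biological replicates without saying how the cultures were separated, so p-values measure the spread between these samples. Floors cover counting error only.

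The members and lists were chosen with earlier results of these data known. The text names all 10 members, any tested gene of the 4 neighbouring lists, the extremes of glycolysis, Eftud2, and the 3 genes nearest to Tigar by root mean square of centred log2 CPM (prior count 2). A further item of this rule is not reported here. Gpi1 and Gapdh were added as partners after their values were seen. The 15 alternatives were DESeq2 1.42.0, other scalings and filters, only the groups compared, the replicate block, and each library left out. Promoters were searched with Python 3.11.15 on both strands (all 10 members had a RefSeq entry), and figures drawn with matplotlib 3.10.9.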

Additional observations from a re-analysis of the deposited data

How the results depend on the processing

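Of 450 values of the 10 members over 15 alternatives and 3 comparisons, 425 kept their side of the threshold, 25 lost the call, and 0 called values changed sign. Among the values without a call, 6 of 30 results took either sign, namely Rpe in all 3 comparisons and Pgd, Rpia and Prps1 with shRNA2. Tigar, Pgls and Tkt kept their calls in all, as did Prps1 with shRNA1. With library size alone the median of all genes moved to 0.11 with shRNA1, calls were 4101 higher and 1713 lower (70.5% higher, against 44.7%), 2 members were lower and their median was 0.04. With shRNA2 that scaling left 3 members lower, at a median of −0.02 (58.9% of calls higher, against 48.7%), and DESeq2's Wald test and a minimum of 10 counts in every library also left 3. The cause was not tested.

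Leaving out 1 library gave 2948 to 5903 genes called with shRNA1 (1248 to 2649 higher, 1700 to 3254 lower; the lowest counts without nt-shRNA replicate 1), 2 to 4 members lower and medians of −0.14 to −0.02. With shRNA2 it gave 3 to 5 members lower and medians of −0.12 to −0.08. Correlations of values centred within groups were −0.03 to 0.07 for same-numbered libraries and −0.08 to 0.03 for the others. Same-numbered libraries of the 2 Eftud2 hairpins gave 0.02, 0.06 and 0.07. Of these knockdown libraries, 5 of 6 correlated best with their own number. Centred within such small groups, the values cannot decide whether the numbers pair the libraries, and the labels do not say. The fit with the replicate block called 6018, 10034 and 6518 genes, gave Tigar 0.33, 0.64 and 0.31, and changed no call of a member. It called more genes than the main fit in every comparison. With shRNA1 these were 2694 higher and 3324 lower, against 2407 and 2981 in the main fit. With 2 control libraries, 1 of them can decide a call near the threshold.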

Other observations

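Of the 10 listed genes for PRPP use and purine synthesis, 0 were called higher and 3 lower with shRNA1, and 2 higher and 4 lower with shRNA2. Of all tested genes, 13.8% were higher and 17.1% lower with shRNA1, and 27.2% and 28.7% with shRNA2. The list had median log2 fold changes of −0.07 and 0.02. Nampt, which uses PRPP to make the NAD precursor nicotinamide mononucleotide, was at 237.9 and 232.6 CPM with nt-shRNA, 132.7 to 153.9 with shRNA1 (−0.72, adjusted p = 4.82e-07) and 88.16 to 101.8 with shRNA2 (−1.30, adjusted p = 6.98e-11). The salvage gene Aprt fell by 0.40 and by 0.42 on the log2 scale, and Paics, of purine synthesis, by 0.23 and by 0.34, the first of these lost without nt-shRNA replicate 2 (adjusted p = 0.0733). Umps, of pyrimidine synthesis, gave 0.15 with shRNA1 (adjusted p = 0.0562) and rose by 0.25 with shRNA2 (adjusted p = 0.00125). Ppat, the first step of purine synthesis from PRPP, gave 0.09 (adjusted p = 0.279) and rose by 0.17 (adjusted p = 0.021), a call lost without nt-shRNA replicate 1 (adjusted p = 0.0928), nt-shRNA replicate 2 (0.121) or shRNA2 replicate 1 (0.073).

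The 3 genes whose pattern over the 8 libraries was most like that of Tigar were Lin54, a subunit of a cell cycle regulatory complex, with a root mean square difference of 0.023 in centred log2 CPM, Slain2, a microtubule-binding protein gene (0.0236), and Polr2b, the second largest subunit of RNA polymerase II (0.028). Their log2 fold changes were 0.26, 0.30 and 0.24 with shRNA1 and 0.56, 0.60 and 0.57 with shRNA2. With shRNA1, all 3 lost their calls without nt-shRNA replicate 1 (adjusted p from 0.0561 to 0.137). They were selected from all tested genes for this likeness, so it carries no test.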
